A study of Rattus norvegicus with 18 samples.

Results

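The paraventricular nucleus of the hypothalamus (PVN) was compared between ovariectomized (OVX) rats given estradiol benzoate (EB) and OVX rats given the oil vehicle (Oil). The 6 samples labelled as PVN, 3 EB and 3 Oil, were taken out of 18 samples, and all 23188 gene probe sets on the array were tested as EB minus Oil. All rats were 90-day-old female Sprague-Dawley rats that had been ovariectomized, so both groups lack ovarian hormones. EB rats received 10 µg of the agent, which the labels call 17β-estradiol, in 0.1 mL of oil under the skin on day 1 and again on day 2, and Oil rats received 0.1 mL of oil on the same days. Tissue was taken on day 4. RNA came from bilateral punches of frozen brain located with a stereotaxic atlas, so a sample holds whatever cells lay under the punch. The labels call the 3 samples of a group biological replicates, but do not say which regions came from the same rat. All signals are given as log2 values, where a difference of 1 is a doubling.

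The PVN holds magnocellular neurons, which release oxytocin and vasopressin into the blood from the posterior pituitary, and parvocellular neurons, which make releasing hormones such as corticotropin-releasing hormone and thyrotropin-releasing hormone. It also receives the feeding signals that leave the arcuate nucleus (ARC), among them neuropeptide Y. Estradiol acts through nuclear receptors that bind DNA at estrogen response elements or act through other transcription factors, and through receptors at the membrane. The comparison asked which genes, beyond those usually studied for energy balance, differed in the PVN after EB.

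The labelled nucleus was first checked against its own marker genes, because the samples of a punch study can differ in position. Oxt, which encodes oxytocin, read 15.78, 16.10 and 12.36 in EB samples 1 to 3, against 6.97, 14.87 and 6.92 in Oil samples 1 to 3. Avp, which encodes vasopressin, read 12.61, 15.25 and 10.73 in EB samples, against 7.11, 10.46 and 6.80 in Oil samples. The median of the 23 background probe sets was 7.37 to 7.47 on these 6 arrays. In Oil 1 and Oil 3 both genes therefore lay below background, and these defining markers of the labelled nucleus were not detected there. Over the 11 measured PVN neuron markers, the mean signal was 9.74, 10.29 and 8.85 in EB samples, against 7.74, 9.00 and 7.72 in Oil samples. Oxt and Avp are part of this list and weigh heavily in the gap between Oil 2 and the other Oil samples. The mean is therefore not separate from their values above. The 9 other markers had a median EB minus Oil difference of 0.67, with 8 above 0 and 1 below. Sim1, a transcription factor needed for the formation of the PVN, read 8.83, 10.33 and 6.96 in EB samples, against 8.50, 7.79 and 8.37 in Oil samples, and so did not separate the same samples.

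Markers of other cell types and regions differed between the samples as well. The 17 measured midbrain dopamine neuron markers averaged 7.03, 7.19 and 7.07 in EB samples, against 8.78, 6.97 and 8.81 in Oil samples. Foxa2, a transcription factor of these neurons, read 5.36, 5.21 and 5.46 in EB samples, all below background, against 10.41, 5.09 and 10.06 in Oil samples. Foxa2 was above background in Oil 1 and Oil 3 alone, and the mean of the list was highest in the same samples. The 16 endothelial and mural cell markers averaged 8.63, 9.17 and 9.06 in EB samples, against 9.39, 7.13 and 9.38 in Oil samples, which sets Oil 2 apart as the sample low in vessel transcripts. The 15 oligodendrocyte and myelin markers averaged 12.21, 11.94 and 13.65 in EB samples, against 13.01, 12.72 and 13.01 in Oil samples, with EB 3 the highest. Fewer cells of a type and less RNA per cell cannot be told apart in such samples. Since Oil 1 and Oil 3 stood apart together, differences against Oil 2 alone are given below beside those against all 3 Oil samples for the lists and genes that moved most.

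**Figure D1:**
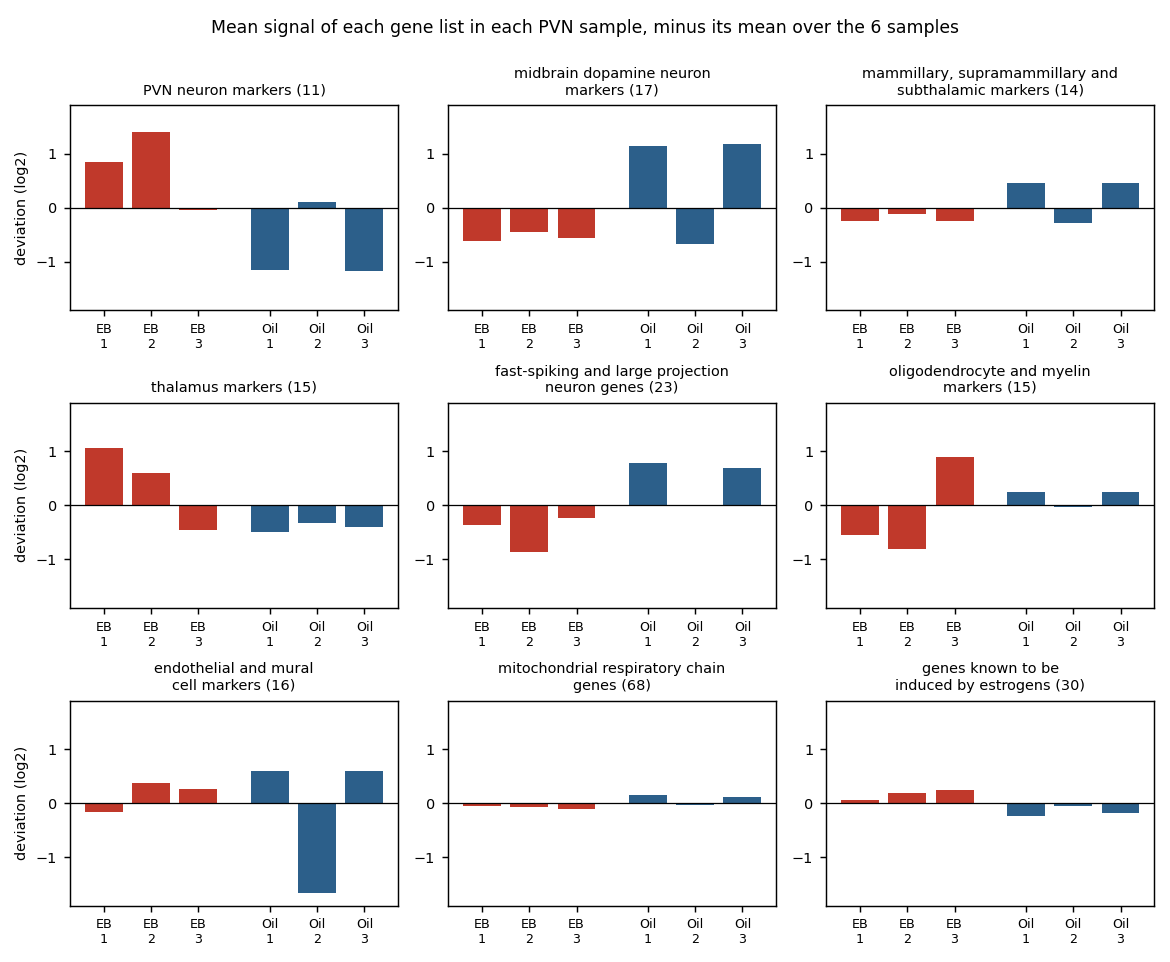
Mean log2 signal of 9 gene lists in each of the 6 PVN samples, minus the mean of the list over the 6 samples, with EB samples in red and Oil samples in blue and the number of measured genes in brackets. Oil 1 and Oil 3 carry the high midbrain dopamine neuron signals and the low PVN neuron signals, and Oil 2 the low endothelial signals. The PVN neuron list includes Oxt and Avp, which weigh heavily in its mean.

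A gene was called when it differed by 2-fold or more with an unadjusted p no larger than 0.05, in a linear model with moderated variances (limma). Of 23188 genes, 35 were called higher with EB (0.151%) and 42 lower (0.181%). The median difference over all genes was 0.00, with 11475 above 0 and 11713 below. No gene passed an adjusted p under 0.05 in limma over all genes (0 of 23188), while at an unadjusted p no larger than 0.05, 746 genes had a higher signal with EB (3.22%) and 735 a lower signal (3.17%). The smallest adjusted p was 0.0852, for S100g, and the other called genes had adjusted p of 0.584 to 0.776. For a single gene, the smallest p that an exact permutation test (two-sided) can give with 3 samples per group is 0.1. In 25 of the 35 genes called higher every EB sample lay above every Oil sample, which held for 1383 of all genes (5.96%). In 30 of the 42 called lower every EB sample lay below every Oil sample, which held for 1482 of all genes (6.39%).

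How far these calls rested on single samples differed between the directions. Against Oil 2 alone, 12 of the 35 genes called higher were still called, but 3 of the 42 called lower. Among the genes called lower, 33 had an Oil 2 signal closer to the EB mean than to the mean of Oil 1 and Oil 3, and among those called higher, 15 did. The 12 genes still called higher were S100g, Npy1r, Plch2, Ramp3, Rasal1, Fam107a, Dhrs1, Nmbr, Pgm5, Slitrk6, Plekhg1 and Gpr4. The 3 still called lower were Esco2, Vip and Cplx1, and no other of the 77 called genes was called against Oil 2 alone. Without EB 3 the counts were 75 higher and 122 lower, without Oil 2 they were 113 and 98, and without Oil 1 they were 27 and 26. In all 6 fits that left out 1 sample, 14 of the 35 higher and 18 of the 42 lower calls held. Gpr4, Slitrk6 and Dhrs1 had their lowest signal in Oil 2. Without Oil 2 they were at 0.96, 0.92 and 0.94 and were not called, so these calls rested on that sample. The Cplx1 call rested on it too, because Cplx1 had its highest signal in Oil 2. Without Oil 2 it was at -0.89 and was not called. Esco2 and Vip lay below background in all 6 samples.

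**Figure D2:**
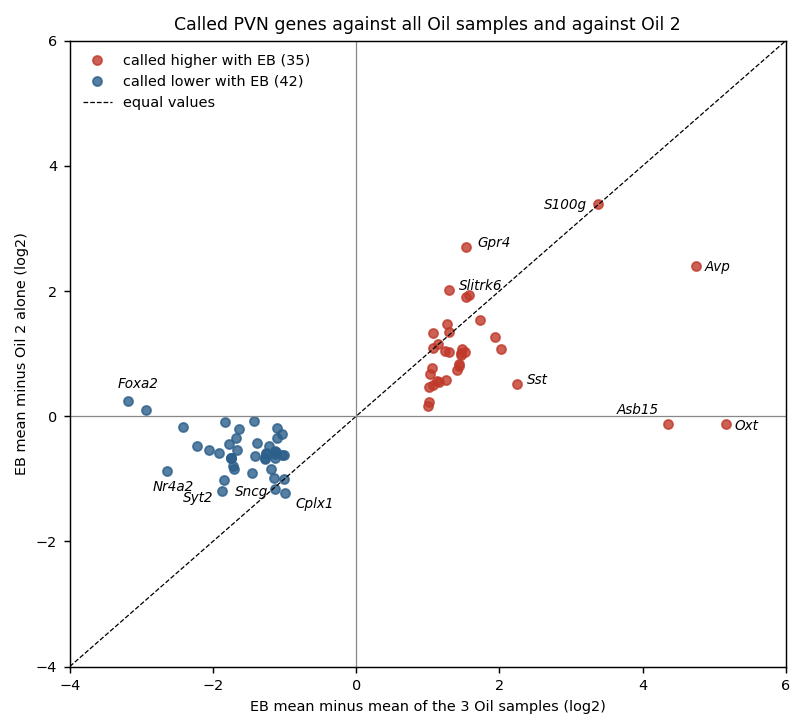
Each point is 1 of the 77 called genes, with the log2 difference between the EB mean and the mean of the 3 Oil samples on the horizontal axis and between the EB mean and Oil 2 alone on the vertical axis. S100g lies on the line of equal values at 3.38 and 3.39, while Oxt at 5.16 and Foxa2 at -3.18 lie near 0 against Oil 2.

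S100g had the smallest p of all genes. It encodes calbindin-D9k, a small calcium-binding protein known as an estrogen-induced gene of the rat uterus. It read 8.76, 9.11 and 9.92 in EB samples, against 6.09, 5.87 and 5.67 in Oil samples. All Oil samples lay below background and all EB samples above it, so S100g was at least 3.67-fold higher with EB, with a fitted log2 difference of 3.38 (SE 0.29, limma adjusted p = 0.0852). Leaving out Oil 1 and Oil 3 together gave 3.39. It was called in all 6 fits that left out 1 sample. Of the other 15 measured S100 genes, 0 were called, and the S100 median was -0.02, and 0.23 against Oil 2 alone. Among 24 calcium-binding EF-hand genes, S100g was called higher, and Cabp1 and Pvalb were called lower.

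The S100g difference was also positive in the other regions, by 2.78 in the ARC and 1.07 in the nucleus tractus solitarius (NTS). The PVN effect minus the ARC effect was 0.60 (SE 1.20, limma adjusted p = 0.990) and the PVN effect minus the NTS effect 2.31 (SE 1.20, limma adjusted p = 0.999), and neither passed. Over all genes, 0 of 23188 (0%) differed between the PVN and ARC effects and 0 (0%) between the PVN and NTS effects at an adjusted p under 0.05 in limma, with 1164 and 900 genes at an unadjusted p under 0.05. Without EB 3, 1 gene passed in each, which was Ramp3, and without Oil 2, 3 genes passed against the ARC.

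**Figure D3:**
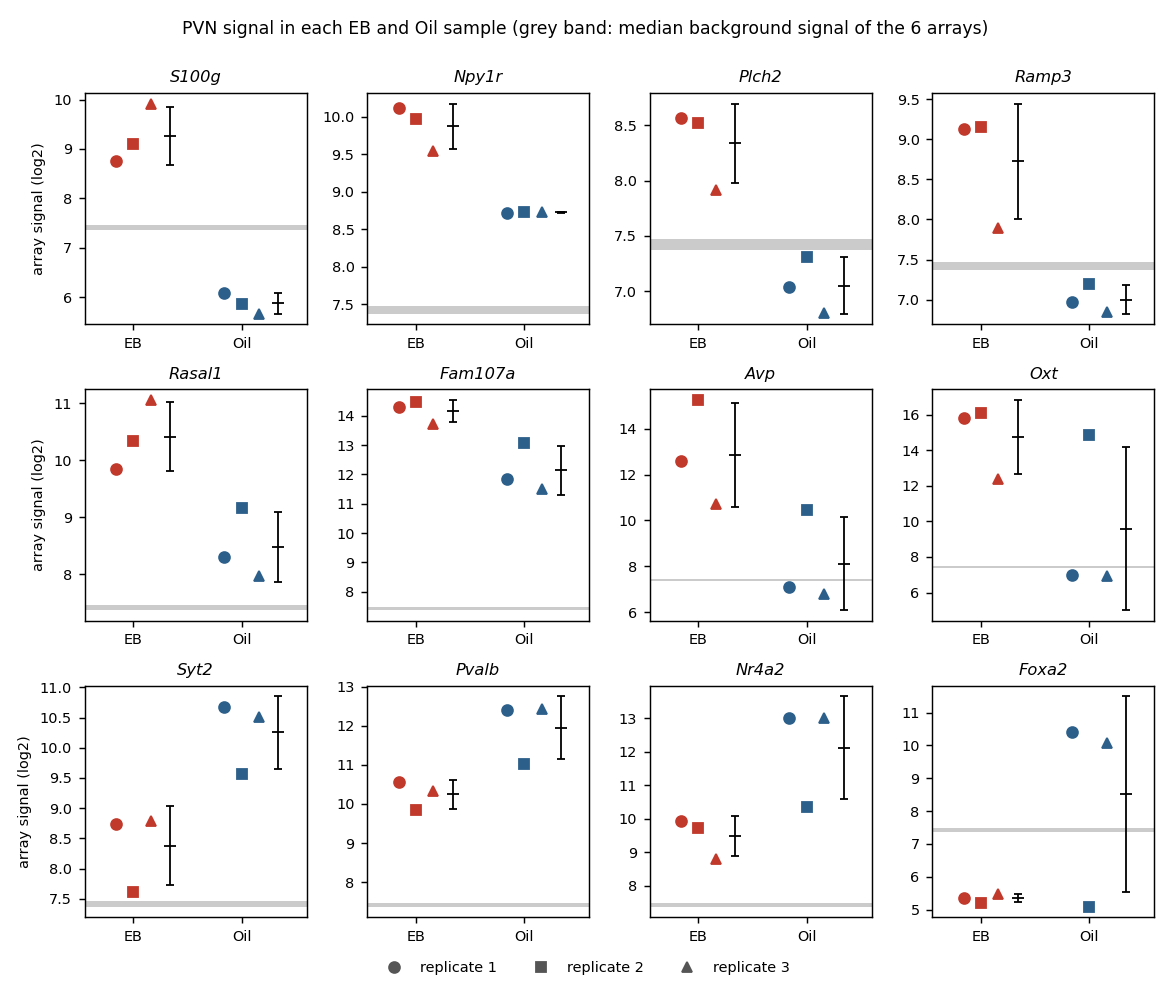
Log2 array signal of 12 called genes in each PVN sample, EB in red and Oil in blue, with the mean and SD of each group as a black bar and the range of background medians of the 6 arrays as a grey band. In the upper row the 3 Oil samples lie together, whereas for Avp, Oxt, Nr4a2 and Foxa2 Oil 2 lies away from Oil 1 and Oil 3.

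Peptide receptors were called in both directions. Of 66 measured peptide G protein-coupled receptors, 3 were called higher, 2 lower and 61 not called, with a median of -0.03. Over all genes 0.151% were called higher and 0.181% lower. Of the 59 receptors not on the study's own list of differing genes, 0 were called. Below background in all 6 samples were 28 of the 66. Npy1r, a receptor of neuropeptide Y, read 10.12, 9.97 and 9.54 in EB samples, against 8.71, 8.73 and 8.73 in Oil samples. The 3 Oil samples lay close together, although they differed widely for Oxt. The Npy1r difference was 1.15 (SE 0.17, limma adjusted p = 0.681) and was called in all 6 fits that left out 1 sample. The ARC difference was -0.10 and the NTS difference 0.40.

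The other peptide receptors varied more between samples. Nmbr, the neuromedin B receptor, read 8.76, 8.01 and 7.73 in EB samples, against 6.92, 7.09 and 6.05 in Oil samples, all below background in Oil, so it was at least 1.72-fold higher with EB (limma adjusted p = 0.681). Gpr83 read 11.31, 11.45 and 9.59 in EB samples, against 9.01, 9.75 and 9.02 in Oil samples, where EB 3 and Oil 2 overlap. Ntsr1, a neurotensin receptor also found in dopamine neurons, read 9.43, 9.22 and 8.94 in EB samples, against 10.42, 9.82 and 10.46 in Oil samples. Gpr50, an orphan receptor related to the melatonin receptors, read 7.91, 7.56 and 7.89 in EB samples, against 10.49, 8.33 and 10.69 in Oil samples. Both were called lower, and against Oil 2 alone the differences shrank to -0.63 for Ntsr1 and -0.54 for Gpr50, neither called. Ramp3, an accessory protein that turns calcitonin-family receptors into amylin or adrenomedullin receptors, read 9.13, 9.15 and 7.89 in EB samples, against 6.97, 7.19 and 6.84 in Oil samples. It was at least 2.53-fold higher with EB (limma adjusted p = 0.681), and the other 4 genes of its list were not called. Ramp3 is also expressed in thalamus, whose markers are described below.

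Among genes of intracellular signalling, single members of several families were called higher. Plch2, a neuronal phospholipase C, read 8.57, 8.52 and 7.92 in EB samples, against 7.04, 7.31 and 6.80 in Oil samples, and was at least 1.93-fold higher with EB (limma adjusted p = 0.681). Plch2 is named only through the list of differing genes that the study drew from these samples. Rasal1, which switches Ras off by speeding its GTP hydrolysis, read 9.85, 10.34 and 11.06 in EB samples, against 8.30, 9.16 and 7.97 in Oil samples. The fitted differences were 1.94 (SE 0.38) for Rasal1 and 1.29 (SE 0.21) for Plch2, and both genes were called in all 6 fits that left out 1 sample. Of 29 Ras genes and Ras regulators, Rasal1 was the 1 called, and 19 lay above 0. Rgs4, which shortens G protein signals, was the 1 called of 19 regulators of G protein signalling, at 1.02 (SE 0.34), and 0.47 against Oil 2 alone. Prkcd, protein kinase C delta, was the 1 called of 21 protein kinase C and phospholipase C genes named by the platform, at 1.47 (SE 0.51), and 0.98 against Oil 2 alone. For both genes EB 3 overlapped the Oil samples. Of 29 G protein subunits, 0 were called.

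Fam107a, an actin-binding protein that stress and glucocorticoids induce, was called higher. It read 14.28, 14.46 and 13.73 in EB samples, against 11.83, 13.08 and 11.50 in Oil samples, a difference of 2.02 (SE 0.40, limma adjusted p = 0.681), and 1.07 against Oil 2 alone. In the NTS its difference was 1.45 and in the ARC -0.61. Of 17 glucocorticoid and stress response genes, Fam107a was the 1 called, and the median was 0.20, 0.08 against Oil 2 alone and -0.04 without EB 3. Slitrk6, a neuronal adhesion protein, read 12.69, 12.47 and 11.94 in EB samples, against 11.44, 10.35 and 11.44 in Oil samples, with Oil 2 the lowest. Rtn4rl1, a Nogo receptor relative, read 11.03, 10.80 and 9.89 in EB samples, against 9.28, 9.52 and 9.20 in Oil samples. Among other genes called higher, Zswim2, Pgm5, Leng8, Pcdhgc5, Pax6 and Sytl4 had no overlap between the groups, at 1.06 to 1.53 on the log2 scale, and Fstl4, Fam227a and Alkal2 overlapped. Dhrs1, Fezf2 and Gpr4 also had no overlap and lay below background in all Oil samples, so they were at least 1.54-fold, 1.68-fold and 1.59-fold higher with EB.

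Among receptors and channels of synaptic transmission, several members lay above 0 without reaching the fold threshold. Of 16 measured GABA-A receptor subunits, 12 lay above 0 with a median of 0.27, 1 was called higher and 0 lower. Gabra4 read 12.56, 12.35 and 11.69 in EB samples, against 10.64, 11.62 and 10.56 in Oil samples, a difference of 1.26 (SE 0.33), and 0.58 against Oil 2 alone. Gabra2, at 0.88 (SE 0.21), Gabrg1, at 0.57 (SE 0.15), and Gabrb1, at 0.51 (SE 0.14), had no overlap between the groups but a fold change under 2, and were at 0.41, 0.40 and 0.36 against Oil 2 alone. Of 7 metabotropic glutamate receptors, 6 lay above 0 with a median of 0.55 and 0 were called. Grm5, at 0.55 (SE 0.19), had no overlap, nor had Grm6, which lay below background in all Oil samples and was at least 1.14-fold higher with EB. Of 24 calcium channel subunits, 0 were called. Cacna1e read 10.30, 10.34 and 10.17 in EB samples, against 9.61, 9.69 and 9.63 in Oil samples, which is a tight separation at 0.63 (SE 0.12). Cacna1g was at 0.51 (SE 0.14).

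Few potassium and sodium channel genes were called. Kcnmb4, the neuronal accessory subunit of the calcium-activated BK channel, read 9.57, 10.72 and 9.53 in EB samples, against 8.38, 8.93 and 8.09 in Oil samples, a difference of 1.47 (SE 0.35). Kcnab3, an accessory subunit of Kv1 channels, read 7.77, 7.08 and 8.13 in EB samples, against 10.01, 8.51 and 9.57 in Oil samples, a difference of -1.70 (SE 0.41). Both had no overlap and were called in all 6 fits that left out 1 sample, but against Oil 2 alone Kcnmb4 was at 1.01 and Kcnab3 at -0.85, and neither was called. These were the 2 called of 88 potassium channel genes, whose median was 0.10, and 0.05 against Oil 2 alone. Of 11 sodium channel subunits, Scn4b was called lower, at least 2.33-fold with all EB samples below background, and its fitted difference of -2.22 (SE 0.69) was -0.48 against Oil 2 alone. Scn1a, at -0.51 (SE 0.14), had no overlap. Of 16 nicotinic receptor subunits, 2 were called lower, against 0.181% of all genes. Chrna3 was at -1.28 (SE 0.31), and -0.68 against Oil 2 alone, and Chrna6 lay below background in all 6 samples, so no fold change is given. Htr2a was the 1 called of 13 serotonin receptors, at -1.11 (SE 0.36), and -0.35 against Oil 2 alone.

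Of the 42 genes called lower, 12 belonged to the list of fast-spiking and large projection neuron genes. These genes equip neurons that fire rapidly along thick axons, with parvalbumin as calcium buffer, fast vesicle release proteins, Kv3 and sodium channels and neurofilaments. All 23 measured members lay below 0 with EB, with a median of -1.0, and the 12 called compare with 0.181% of all genes. The list was drawn up with results of these data known, so this share describes the list and is not a test of it. The 12 members that are not on the study's own list of differing genes had a median of -0.49, and all 12 lay below 0. Of these 12, 1 was called. They come from the same arrays and the same chosen list, and are not independent support. The mean signal of the whole list was 9.75, 9.24 and 9.87 in EB samples, against 10.89, 10.10 and 10.79 in Oil samples. The groups did not overlap, and Oil 2 lay between. Against Oil 2 alone the median was -0.45, and 1 member was called, Cplx1.

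Pvalb, which encodes parvalbumin, read 10.56, 9.85 and 10.32 in EB samples, against 12.40, 11.03 and 12.44 in Oil samples. Its difference was -1.72 (SE 0.38, limma adjusted p = 0.681), and -0.79 against Oil 2 alone. Syt2, the fast calcium sensor of vesicle release, read 8.74, 7.62 and 8.78 in EB samples, against 10.68, 9.57 and 10.51 in Oil samples. Vamp1, a SNARE protein of the vesicle, read 12.69, 12.48 and 13.16 in EB samples, against 14.49, 13.36 and 14.28 in Oil samples. In these 3 genes every EB sample lay below every Oil sample, with Oil 2 the lowest of the Oil samples. Syt2 was at -1.18 and Vamp1 at -0.58 against Oil 2 alone. Cplx1, complexin, which clamps and triggers SNARE complexes, went the other way within the Oil group. It read 13.79, 12.92 and 13.13 in EB samples, against 14.13, 14.51 and 14.20 in Oil samples, with Oil 2 the highest. Sncg, which encodes γ-synuclein, read 9.35, 10.12 and 10.64 in EB samples, against 12.39, 11.05 and 12.20 in Oil samples. The neurofilament genes Nefm, at -1.13 (SE 0.30), and Nefh, at -1.03 (SE 0.39), were called lower, and Nefl, at -0.62 (SE 0.30), was not. Nefm was at -0.67 and Nefh at -0.30 against Oil 2 alone.

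The wider families of these genes had medians near 0. Of 15 synaptotagmins, Syt2 was the 1 called, and the median was -0.04. Of 49 SNARE and vesicle fusion genes, Cplx1, Sncg and Vamp1 were called lower, against 0.181% of all genes, and the median was -0.01. Of 15 carbonic anhydrases, Car7 was called lower, though all 6 samples lay below background. The 12 pan-neuronal markers averaged 14.71, 14.47 and 14.51 in EB samples, against 14.61, 14.64 and 14.57 in Oil samples, and 0 were called. The midbrain dopamine markers were high in Oil 1 and Oil 3, with a median difference of -0.99. The vessel markers were low in Oil 2 alone, at 7.13 against 8.63 to 9.39 in the other samples, with a median of 0.34. The part of either list in the lower fast-spiking signals was not tested.

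**Figure D4:**
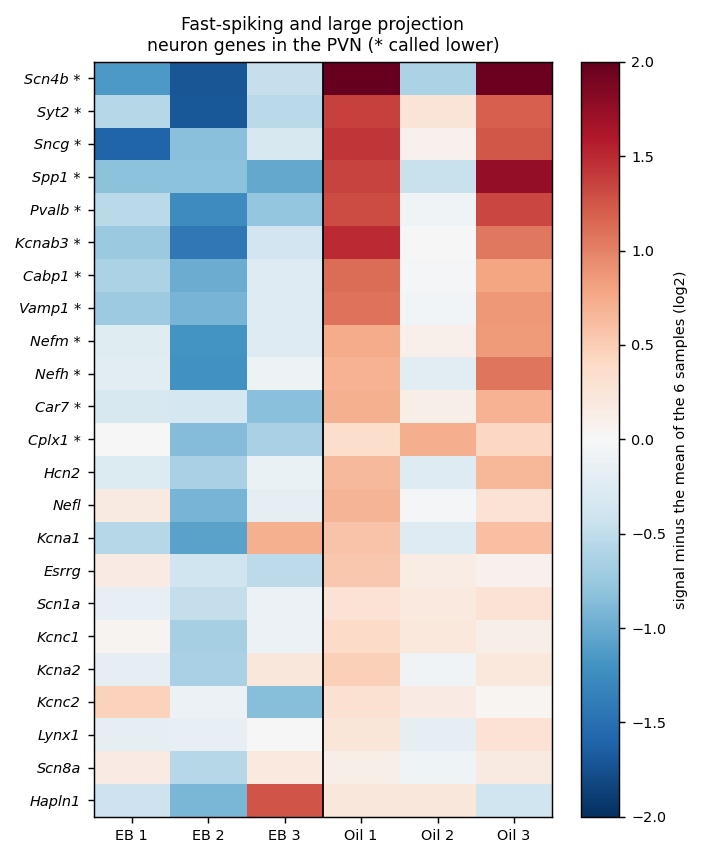
Log2 signal of the 23 measured fast-spiking and large projection neuron genes in each PVN sample, as the difference from the mean of the 6 samples, with genes in order of their EB minus Oil difference and an asterisk on the 12 called lower. The colour scale ends at 2 in either direction. Most called genes are high in Oil 1 and Oil 3 and intermediate in Oil 2.

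Midbrain dopamine neuron genes made up the other large group among the genes called lower. All 17 measured markers lay below 0 with a median of -0.99. Foxa2, Slc6a3, Nr4a2, Ntsr1 and Chrna6 were called lower, against 0.181% of all genes, but the list was chosen with results of these data known. These called genes are all on the study's own list of differing genes. The 12 markers not on it had a median of -0.37, all below 0, and 0 were called. Slc6a3, the dopamine transporter, read 6.35, 6.81 and 5.84 in EB samples, against 10.01, 6.50 and 9.75 in Oil samples, at least 2.5-fold lower with EB, and Foxa2 was at least 2.13-fold lower. Nr4a2, a nuclear receptor needed for dopamine neurons, read 9.92, 9.71 and 8.79 in EB samples, against 13.01, 10.34 and 12.99 in Oil samples. Th, the first enzyme of dopamine synthesis, read 9.03, 9.88 and 7.70 in EB samples, against 12.52, 8.33 and 12.62 in Oil samples, and was not called. Against Oil 2 alone, 0 markers were called and the median turned to 0.11, with Foxa2 at 0.25, and without Oil 3 the median was -0.49. Pitx3, another defining marker of these neurons, lay between 4.45 and 4.98 in all 6 samples, below background. The pattern was not limited to these markers. Of 14 mammillary, supramammillary and subthalamic markers, 11 lay below 0 and 3 above, with a median of -0.35. Their mean signal was 7.86, 7.98 and 7.85 in EB samples, against 8.56, 7.83 and 8.57 in Oil samples. Ebf2, a transcription factor of this list, was the 1 called lower, at least 1.12-fold with all EB samples below background. Its fitted difference of -1.10 (SE 0.35) was -0.20 against Oil 2 alone. Cd36, a fatty acid carrier, was also high in Oil 1 and Oil 3, at 9.97 and 10.39, against 8.17 in Oil 2 and 7.45 to 7.73 in the EB samples.

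Further genes called lower came from families with few other calls. C1ql1, a secreted C1q-like protein that binds synaptic adhesion receptors, read 11.01, 11.08 and 11.63 in EB samples, against 13.44, 11.90 and 13.62 in Oil samples, and was the 1 called of 16 C1q-like and cerebellin genes. Sgpp2, a phosphatase of sphingosine-1-phosphate, read 11.26, 10.70 and 10.75 in EB samples, against 12.50, 11.37 and 12.48 in Oil samples, and was the 1 called of 22 endocannabinoid and ceramide genes. In both, Oil 2 was the lowest Oil sample but above all EB samples, with differences against Oil 2 alone of -0.66 for C1ql1 and -0.47 for Sgpp2. Of 32 extracellular matrix genes, Spp1 and Postn were called lower and Fstl4, at 1.16 (SE 0.33) and 0.53 against Oil 2 alone, higher. Spp1 lay below background in all EB samples and was at least 1.51-fold lower, with a fitted difference of -1.78 (SE 0.51) that was -0.45 against Oil 2 alone, and Postn lay below background in all 6 samples. Of 33 DNA replication and chromosome segregation genes, Mis18a was called lower, at 5.01 to 5.24 in EB samples and 5.73 to 6.66 in Oil samples, all below background. Pthlh, which encodes parathyroid hormone-related protein, was at -1.45 (SE 0.40), and -0.91 against Oil 2 alone, and Cd164l2, below background in all EB samples, was at least 1.65-fold lower, both without overlap. Of 14 cerebral cortex markers, Fezf2 was called higher and Neurod6 lower, and the median was 0.08. Neurod6 read 8.42 and 8.44 in Oil 1 and Oil 3 and was below background in the other 4 samples, so it was at least 1.09-fold lower, and its fitted difference of -1.83 (SE 0.65) was -0.08 against Oil 2 alone. Of 23 protocadherins, Pcdhgc5 was called higher, and the median was 0.15.

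Thalamus markers were higher in EB 1 and EB 2. Of 15 measured markers, 13 lay above 0 with a median of 0.67. Ramp3, Plekhg1, Prkcd and Synpo2 were called higher, against 0.151% of all genes, but the list was chosen with results of these data known. These called genes are all on the study's own list of differing genes. The 11 markers not on it had a median of 0.46, with 9 above 0, 2 below and 0 called. Over all 15 markers the mean signal was 10.52, 10.06 and 9.01 in EB samples, against 8.97, 9.14 and 9.05 in Oil samples. EB 3 thus lay within the range of the Oil samples. Plekhg1, an activator of small GTPases, read 11.10, 10.26 and 9.21 in EB samples, against 8.61, 8.26 and 8.97 in Oil samples. Synpo2, an actin-binding protein, read 8.20, 7.74 and 6.0 in EB samples, against 5.93, 5.96 and 6.18 in Oil samples. Zic1, a transcription factor of septum and thalamus, read 13.77, 13.14 and 10.32 in EB samples, against 9.10, 13.45 and 8.30 in Oil samples, and was not called. Against Oil 2 alone the median was 0.92, with Ramp3 at 1.54, Plekhg1 at 1.94, Prkcd at 0.98 and Synpo2 at 1.36. Ramp3 at 7.89 in EB 3 was still above all Oil samples, whereas Synpo2 in EB 3 was within their range. Whether the Ramp3 difference belongs to the thalamus pattern was not tested.

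Among hypothalamic peptides, 3 of 29 measured genes were called higher and 2 lower, against 0.151% and 0.181% of all genes. The median was 0.17, and -0.05 against Oil 2 alone. Of the 25 peptides not on the study's own list, 0 were called higher and 1 lower. Sst, which encodes somatostatin, read 12.87, 12.97 and 13.16 in EB samples, against 10.22, 12.48 and 9.59 in Oil samples, a difference of 2.24 (SE 0.65) that was 0.52 against Oil 2 alone. Avp was at 4.74 (SE 1.28), and 2.40 against Oil 2 alone. Oxt was at 5.16 (SE 2.11), and -0.13 against Oil 2 alone. These 3 peptides thus followed the split of the Oil samples. Vip, at 5.11 to 5.75 in EB samples and 6.42 to 6.80 in Oil samples, and Ucn lay below background in all 6 samples, so no fold change is given. Pmch, which encodes melanin-concentrating hormone of the lateral hypothalamus, read 15.67, 15.93 and 16.93 in EB samples, against 15.31, 10.22 and 15.32 in Oil samples, and Oil 2 was the low one. Hcrt, which encodes the orexins of the same area, read 8.15, 8.07 and 10.06 in EB samples, against 12.36, 8.23 and 12.03 in Oil samples. Neither was called. Asb15, a substrate adaptor of ubiquitin ligases, read 11.84, 11.66 and 11.37 in EB samples, against 5.27, 11.76 and 4.78 in Oil samples, and was called higher at 4.35 (SE 1.64), and was at -0.13 against Oil 2 alone. The Asb15 difference was also positive in the other regions, at 4.23 in the ARC and 6.23 in the NTS. This gene is named only through the study's own list. Of 17 other genes of its family, 0 were called.

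Genes known to respond to estrogens elsewhere were examined as a list of 30 measured genes. Of these, 21 lay above 0 with a median of 0.23. S100g and Kcnmb4 were called higher, against 0.151% of all genes, and 0 were called lower. The list was chosen with results of these data known, and both called genes are on the study's own list of differing genes. The 27 genes not on it had a median of 0.19, with 18 above 0, 9 below and 0 called. Against Oil 2 alone, 17 lay above 0 and 13 below with a median of 0.07, and Kcnmb4 was not called. Pgr, the progesterone receptor, read 9.61, 9.22 and 9.86 in EB samples, against 8.70, 8.91 and 8.88 in Oil samples, a difference of 0.73 (SE 0.18) without overlap but under the fold threshold. Nrip1, a corepressor of estrogen receptors, was at 0.42 (SE 0.16), and Bdnf, a neurotrophin, at -0.71 (SE 0.28), and -0.19 against Oil 2 alone. Of 11 estrogen and steroid receptor genes and their partners, 0 were called, and the median was 0.20, and 0.01 against Oil 2 alone. Esr1, estrogen receptor α, read 10.00, 10.18 and 10.14 in EB samples, against 7.85, 11.06 and 8.22 in Oil samples, where Oil 2 was the highest of all 6. Esr2, estrogen receptor β, known for its expression in the rat PVN, read 4.64 to 6.18 over all 6 samples, below background.

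**Figure D5:**
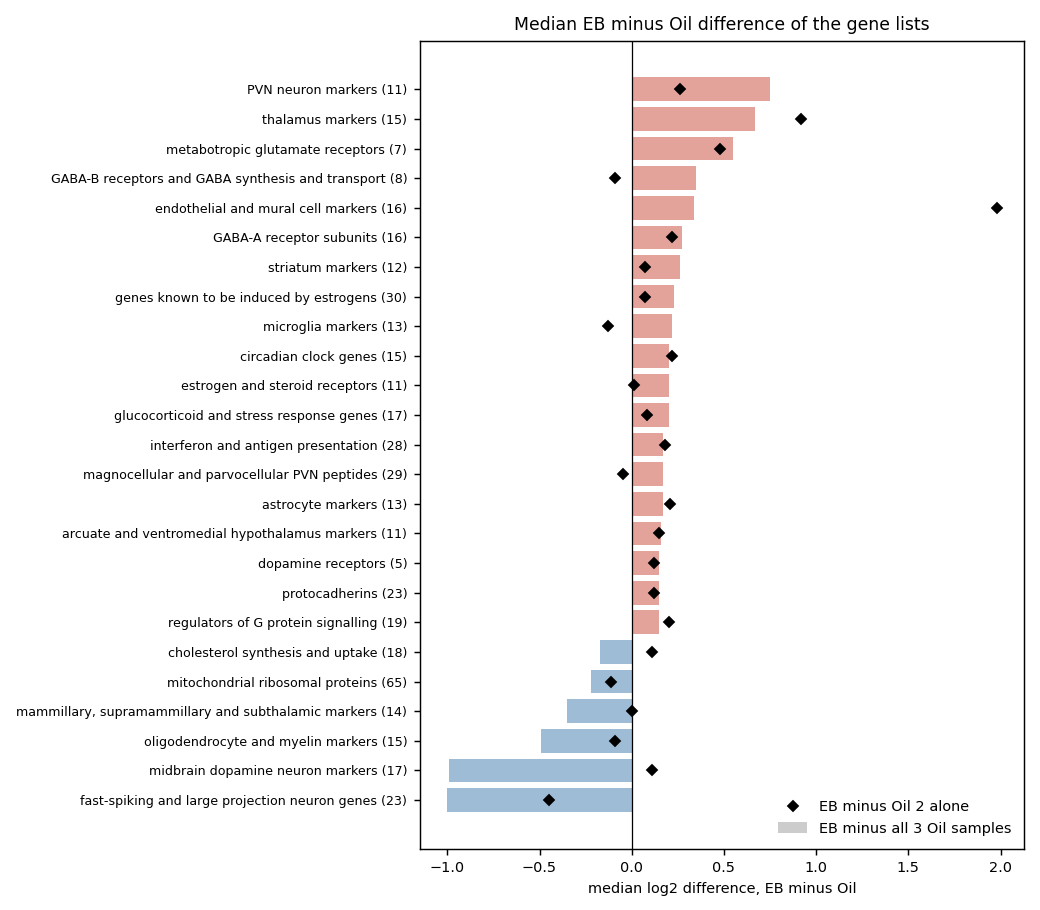
Median log2 difference of the gene lists whose median is at least 0.15 in size, EB minus all 3 Oil samples as bars and EB minus Oil 2 alone as diamonds, with the number of measured genes in brackets. The fast-spiking bar ends at -1.0 with its diamond at -0.45, and the midbrain dopamine bar at -0.99 with its diamond at 0.11.

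The estrogen response element is the palindrome GGTCANNNTGACC, and its half-site is GGTCA, or TGACC on the other strand. Promoter windows of 300 bases, from 250 before to 50 after the start of the gene, were read from RefSeq (build GRCr8) for 29 genes called higher and 27 called lower, with both strands searched. The full element was in 0 of the 29, in 0 of the 27 and in 7 of all 27457 promoters. A half-site was in 8 of the 29 (27.6%), in 8 of the 27 (29.6%) and in 40.2% of all promoters. At least 2 half-sites were in 3 of the 29 (10.3%), in 4 of the 27 (14.8%) and in 10.8% of all. The windows of Oxt and Npy1r are printed because Oxt held the most half-sites of the called genes and Npy1r had the smallest p of the genes called higher that have a window. Half-sites are in capitals.
Oxt, chr3:138235504-138235803, plus strand: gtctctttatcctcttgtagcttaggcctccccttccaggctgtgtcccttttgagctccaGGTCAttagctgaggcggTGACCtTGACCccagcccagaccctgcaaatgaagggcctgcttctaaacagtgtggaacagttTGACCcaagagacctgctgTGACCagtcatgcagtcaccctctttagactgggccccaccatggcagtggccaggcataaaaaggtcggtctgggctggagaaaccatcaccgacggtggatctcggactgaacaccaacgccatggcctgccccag
Npy1r, chr16:27813338-27813637, minus strand: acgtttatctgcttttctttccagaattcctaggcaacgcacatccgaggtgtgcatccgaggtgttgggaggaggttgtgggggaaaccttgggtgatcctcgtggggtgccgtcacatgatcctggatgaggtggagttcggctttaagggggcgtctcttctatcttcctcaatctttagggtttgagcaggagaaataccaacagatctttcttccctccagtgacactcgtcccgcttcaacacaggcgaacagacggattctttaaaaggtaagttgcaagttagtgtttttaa
The Oxt window held 5 half-sites, which was so for 25 of all promoters (0.0911%, at 5 or more), and the Npy1r window held 0. A match of letters is a description and does not show that a receptor binds there.

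Most genes of the mitochondrial families lay slightly below 0, and most cytosolic ribosomal protein genes slightly above 0. Of 65 mitochondrial ribosomal protein genes, 59 lay below 0 with a median of -0.22, and 0 were called. Mrpl14 read 11.83, 11.71 and 11.79 in EB samples, against 12.26, 12.19 and 12.23 in Oil samples, and Mrpl12 was at -0.55 (SE 0.14). Of 68 mitochondrial respiratory chain genes, 65 lay below 0 with a median of -0.14, and 0 were called. For 20 of the 65 and 18 of the 68, every EB sample lay below every Oil sample, against 6.39% of all genes. The respiratory chain mean was 13.98, 13.97 and 13.94 in EB samples, against 14.19, 14.00 and 14.16 in Oil samples, and Oil 2 was the closest to EB. Against Oil 2 alone the medians were -0.11 for the mitochondrial ribosomal genes and -0.03 for the respiratory chain. The 66 cytosolic ribosomal protein genes had 50 members above 0 and a median of 0.05, and 0.16 against Oil 2 alone. The 10 housekeeping genes had 6 members above 0 and a median of 0.07, and -0.02 against Oil 2 alone. Genes of these lists vary together within a sample and are not independent measurements.

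Activity and clock genes gave few calls. Of 25 immediate early genes, 20 lay above 0 with a median of 0.13, and 0.06 against Oil 2 alone, and the 1 called was Nr4a2, described above. However, 16 of the 25 lay below background in all 6 samples. Egr1 read 11.40, 11.22 and 12.28 in EB samples, against 10.59, 11.01 and 10.45 in Oil samples, at 0.95 (SE 0.29). Fos read 6.22 to 6.76 over all 6 samples, below background. Of 15 circadian clock genes, 13 lay above 0 with a median of 0.20, and 0 were called. Npas2, a partner of Bmal1, read 9.67, 9.38 and 9.26 in EB samples, against 8.74, 8.98 and 9.02 in Oil samples, and Bmal1 was at 0.30 (SE 0.13). Both had no overlap, and against Oil 2 alone the list median was 0.22. Of 18 genes of cholesterol synthesis and uptake, 16 lay below 0 with a median of -0.17, but against Oil 2 alone the median was 0.11. Of 28 interferon and antigen presentation genes, 21 lay above 0 with a median of 0.17, and 0 were called. Of these 28, 19 lay below background in all 6 samples.

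Several called genes were close to background. Among the 42 genes called lower, 8 lay below background in all 6 samples and 13 more in all 3 EB samples only. Esco2, an acetyltransferase of cohesin, had the smallest p of the genes called lower, yet read 5.62 to 5.88 in EB samples and 6.74 to 6.75 in Oil samples, below background throughout. Among the 35 called higher, 10 lay below background in all 3 Oil samples only. Restricted to probe sets above background in at least 3 PVN arrays, 12526 in number, 29 genes were called higher and 24 lower. The probe sets of LOC102552104 and LOC102555039, both called lower at -1.75 (SE 0.58), and -0.66 against Oil 2 alone, held identical values in all 18 arrays and cannot be told apart. Of the called genes, 33 higher and 41 lower have 1 symbol. Those named only through the study's own list number 4 and 11, and include Vhll, below background in all 6 samples, and Scn7a, below background in all EB samples. Scn7a was at least 2.67-fold lower, with a fitted difference of -1.64 (SE 0.55) that was -0.20 against Oil 2 alone. Shisa3, LOC102551298, LOC102553221 and LOC102555324 were also called lower, with fitted differences of -1.14 to -1.67 and of -0.42 to -0.63 against Oil 2 alone, and all but LOC102555324 lay below background in all EB samples.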

How the data were processed

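The log2 signals were deposited by the authors for Rat Clariom S Pico arrays. Per the paper's methods, the array service adjusted for background and normalized the arrays before taking log2, and the authors used the Transcriptome Analysis Console. None of these steps was repeated. Signals were summarised per probe set, and 1646 control probe sets were left out of the 24834 in the table. Of the 23188 gene probe sets, 15048 were named by the platform annotation and 56 only through the study's list of differing genes. Lists hold the former alone, 11 probe sets with several symbols were left unnamed and 8073 had no name. Arrays have no read depth, and 52.9% to 53.9% of gene probe sets exceeded the background median of their array in the PVN.

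EB minus Oil was fitted on the 6 PVN arrays in limma 3.58.1 (R 4.3.3, statmod 1.5.0) with moderated variances, 3.59 prior degrees of freedom and Benjamini-Hochberg adjustment over all gene probe sets, without further normalization or filter. Regional effects were compared in a single model of the 18 arrays, which treats samples as unrelated although rats may be shared. Correlations between PVN arrays ran from 0.987 to 0.996. Where all 3 samples of a group lay below their background median, the median took their place, the fold change is given as at least, and any log2 difference beside it is the fitted one. Where both groups did, no fold change is given. The fits were tested on simulated data. Members and lists were chosen with earlier results of these data known. Genes are named if among the 15 smallest p per direction with 1 symbol and no overlap, if called and in a list, or beside their list; others were chosen after their values were seen. Some called genes are not reported here. Alternatives changed normalization, background filter, arrays fitted, moderation, thresholds and samples. Plots used matplotlib 3.10.9 under Python 3.11.15.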

Additional observations from a re-analysis of the deposited data

How the results depend on the processing

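Quantile normalization, median centring, a fit of all 18 arrays and trend and robust moderation kept both counts of called genes within 1.5 times, as did the replicate block, which gave 46 genes called higher and 51 lower and kept all 35 and 42 calls. Samples with the same replicate number did not deviate together (correlations -0.18, 0.07 and 0.13). With 3 samples a group, such values cannot tell whether the numbers pair the samples, and the labels do not say. At a fold of 1.5 or more, 226 genes were called higher and 190 lower, and at an adjusted p under 0.05 the counts were 0 and 0. On probe sets above background, 24 genes were called lower. Leaving out each sample in turn gave 27 to 113 genes higher and 26 to 122 lower, with 0 to 3 genes differing from the ARC effect and 0 to 1 from the NTS effect. With Oil 2 as the only Oil sample, assumed to vary like the EB samples, 126 genes were called higher and 42 lower, of which 12 and 3 were among the calls above, and 1 gene differed from the ARC effect. There Oxt (-0.13), Asb15 (-0.13) and Foxa2 (0.25) changed sign. In limma, 1 gene passed an adjusted p under 0.05 with trend and robust moderation (S100g), 2 without EB 3 and 24 without Oil 2. With 3 samples a group, 2 of them unlike the third in the Oil group, and many genes near background, small differences could not be resolved.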

Other observations

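Endothelial and mural cell genes set 1 sample, Oil 2, apart from the other 5. Flt1, a receptor of vascular endothelial growth factor, read 11.06, 11.45 and 11.17 in EB samples, against 11.40, 8.23 and 11.35 in Oil samples. Cldn5, the tight junction protein of brain capillaries, read 11.25, 12.14 and 11.66 in EB samples, against 11.90, 9.30 and 12.10 in Oil samples. Rgs5, a pericyte marker, read 10.97, 12.30 and 11.21 in EB samples, against 12.15, 9.04 and 12.21 in Oil samples. Of the 16 markers, 0 were called, and the median was 0.34 against all Oil samples, 1.98 against Oil 2 alone and -0.47 without Oil 2. Oil 2 is thus the Oil sample with PVN peptide signals and also the one low in vessel transcripts.

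Myelin genes set EB 3 apart. Mog, a myelin surface protein, read 13.23, 12.96 and 15.09 in EB samples, against 14.25, 14.16 and 14.44 in Oil samples, and Cldn11, the tight junction protein of myelin, read 14.26, 14.00 and 15.87 in EB samples, against 15.31, 15.05 and 15.26 in Oil samples. Fezf1, a hypothalamic transcription factor, read 7.30, 7.51 and 12.10 in EB samples, against 7.16, 8.29 and 6.58 in Oil samples, high in EB 3 alone. No gene of these was called.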
